A study of Mus musculus with 2 samples.

Results

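AP-1 is a dimeric transcription factor of keratinocytes, and its subunits, together with *Egr1*, were compared between the skin of newborn *Pnpla1*+/+ and *Pnpla1*-/- mice. The 10 genes are the Fos subunits *Fos*, *Fosb*, *Fosl1* and *Fosl2*, the Jun subunits *Jun*, *Junb* and *Jund*, the related factors *Atf3* and *Batf*, and *Egr1*. They were chosen by name, as the probes that the scanner files assign to these genes, and make up 10 of the 30133 genes on the array. All 10 had a probe, and 11 probes on 29 spots per array measured them. *Pnpla1*+/+ mice carried the wild-type gene. *Pnpla1*-/- mice, on the same C57BL/6N background, were homozygous, in all cells, for a targeted null allele. That allele was made in embryonic stem cells of this strain, and flippase had taken LacZ and Neo out of it. Both genotypes came from crosses between heterozygotes, so that the controls were wild-type littermates, and skin was taken at P0, the day of birth. Equal amounts of total RNA from 6 animals were pooled for each genotype and hybridized, with 1 dye, to 1 array per genotype on 1 slide.

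With 1 array each there was no replicate, and no test between genotypes could be run, so that every difference below describes these 2 pools. Intensities are given as deposited, after background subtraction. A difference is the log2 value of *Pnpla1*-/- skin less that of *Pnpla1*+/+ skin, each intensity having first been divided by the 75th percentile of its array, 2108 for *Pnpla1*+/+ and 1734 for *Pnpla1*-/-. A gene was called changed at 2-fold, a log2 difference of 1. Every fold below is of the intensities so divided, while the intensities printed beside it are not scaled. The scanner software gave each spot an error of 10% to 11.4% of its intensity for these probes, which amounts to an SD between 0.20 and 0.22 for a log2 difference. Spots of the same probe repeated on an array differed less, with a median SD over 314 probes of 0.056 for *Pnpla1*+/+ and 0.059 for *Pnpla1*-/- skin. Neither error holds the variation between mice. The targeted gene itself read 579 in *Pnpla1*+/+ but 114 in *Pnpla1*-/- skin, a difference of −2.07, and its probe stayed well above background in the latter. All 10 keratinocyte markers were well above background on both arrays, as were all 8 fibroblast and all 6 skeletal muscle markers, so that the RNA, which the labels call skin and the series description epidermis, also held that of deeper layers. In such bulk RNA, fewer cells of a type and less RNA per cell cannot be told apart.

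Fos proteins form dimers with Jun proteins through a leucine zipper, and the dimer binds the sequence TGANTCA in the promoters and enhancers of its targets. Many members are immediate early genes, whose transcription starts within minutes of a growth factor, cytokine or stress signal, through MAP kinases and factors already present in the cell, and ceases soon after. In the epidermis different subunits are known to act in different layers, and AP-1 controls genes of the cornified envelope as well as genes of wounding and inflammation. Egr1 is a zinc finger protein of another family that is switched on by the same signals.

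The members did not move together. *Fosl1*, *Batf* and *Junb* were higher in *Pnpla1*-/- skin by 2-fold or more, *Fosb* and *Fos* were lower by as much, and *Jun*, *Jund*, *Fosl2*, *Egr1* and *Atf3* lay between. Thus 3 of 10 members were called higher, where 6.70% of the 22383 genes with a difference were, and 2 of 10 were called lower, where 3.04% of all genes were. With the arrays centred on spike-in RNA, 1 member was called higher against 3.73% of all genes, and 2 were called lower against 9.82%. The median over the members, 0.026, was next to that over all genes, 0.0027, while their range, 3.67, ran from −1.66 for *Fosb* to 2.01 for *Fosl1*. All 10 genes were well above background on both arrays, so that no value is a bound.

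**Figure D1:**
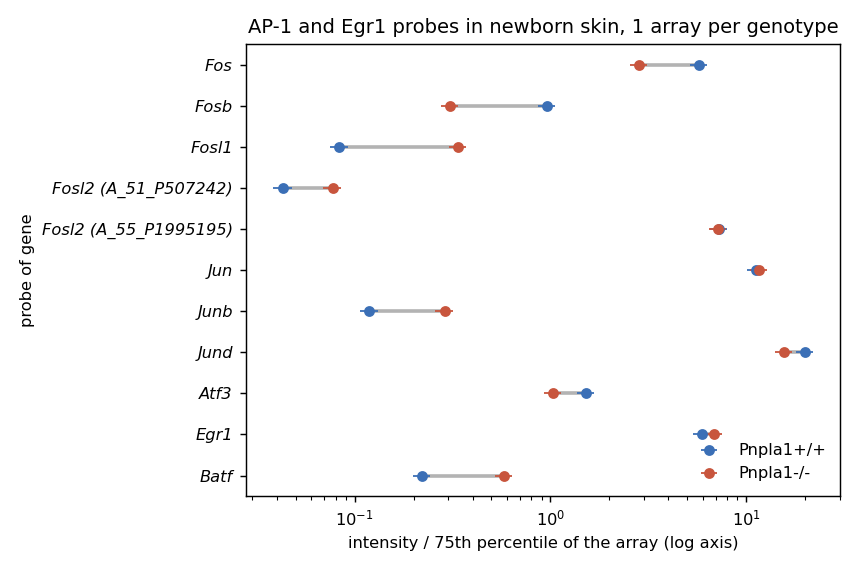
Intensity of each probe divided by the 75th percentile of its array, on a log axis, in *Pnpla1*+/+ (blue) and *Pnpla1*-/- (red) skin, 1 array each, with bars for the scanner software's error of 1 SD and a grey line joining the arrays. Genes are to be compared between arrays only, since probes differ in brightness. *Fosl1*, *Junb*, *Batf* and the dimmer *Fosl2* probe lie to the right in *Pnpla1*-/- skin, *Fos*, *Fosb*, *Atf3* and *Jund* to the left, and the points of *Jun* and of the brighter *Fosl2* probe nearly coincide.

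**Figure D2:**
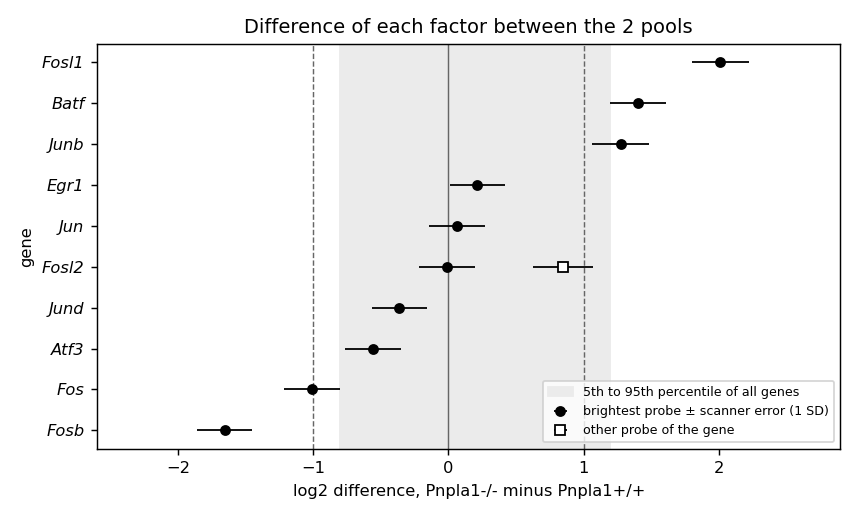
Log2 difference of each gene between the pools (points, with bars of 1 SD from the scanner software's error), with 2-fold marked by dashed lines and the 5th to 95th percentile of all genes, −0.80 to 1.20, in grey. *Fosl1*, *Batf* and *Junb* lie beyond the grey band on the right and *Fos* and *Fosb* beyond it on the left, while the open square shows the other *Fosl2* probe at 0.85.

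*Fos*, the founding subunit and a classical immediate early gene, was measured by 10 spots of 1 probe on chromosome 12 of mm9 (chr12:86817900-86817959, plus strand). In *Pnpla1*+/+ skin the spots ran from 11267 to 12578 with a median of 11982, and in *Pnpla1*-/- skin from 4465 to 5196 with a median of 4906. The ranges did not overlap. The mean over the spots was 2.01-fold lower in *Pnpla1*-/- skin, a log2 difference of −1.01 ± 0.022 (SD over 10 spots), and the single spots gave −1.05 to −0.98. *Fos* was thus at the 2-fold line itself, and 2.98% of all genes had a lower value. *Fosb*, its closest relative, was lower still, with 1 spot (chr7:19888168-19888227, minus strand) at 2032 in *Pnpla1*+/+ and 531 in *Pnpla1*-/- skin. After scaling that was 3.15-fold lower, a log2 difference of −1.66, and only 0.867% of all genes had a lower one.

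*Fosl1*, which codes for Fra-1, a Fos protein that lacks the strong transactivation domain and is known from wounded and migrating keratinocytes, went the other way. Its spot (chr19:5455496-5455555, plus strand) read 176 in *Pnpla1*+/+ against 583 in *Pnpla1*-/- skin. After scaling it was 4.03-fold higher, with the largest difference of the 10 genes at 2.01, and 1.83% of all genes had a higher one. Between the pools *Fosl1* and *Fos* shifted by 3.02 against each other on the log2 scale, and *Fosl1* and *Fosb* by 3.67.

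*Fosl2*, for Fra-2, was the only member with 2 probes, and they differed. The brighter one (chr5:32460076-32460135) had 15268 in *Pnpla1*+/+ and 12461 in *Pnpla1*-/- skin, a difference of −0.011 after scaling. The dimmer one (chr5:32455088-32455147) lies 4988 bases upstream on the same strand and had 90.8 and 134, a difference of 0.85. The gap of 0.86 between them was larger than the scanner error, and which of them reports the gene's RNA was not tested. The dimmer probe is shown because it is the one that departs from no change, and its sequence can be read in 1 frame without a stop codon:
*Fosl2* dimmer probe: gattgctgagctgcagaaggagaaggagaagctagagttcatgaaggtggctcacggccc

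**Figure D3:**
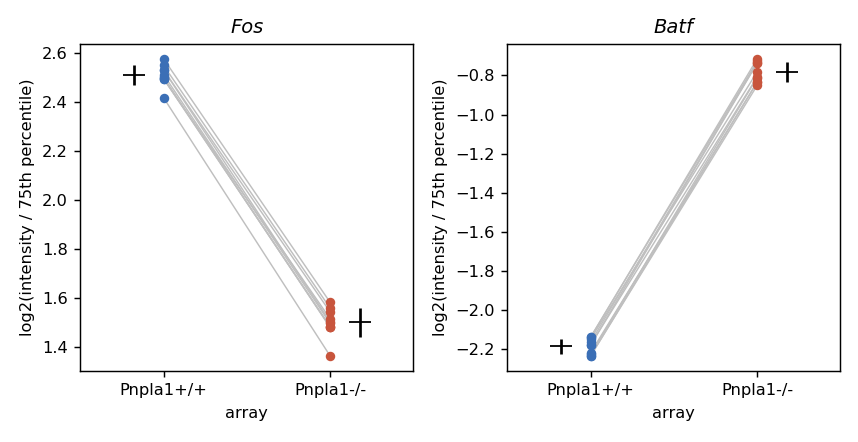
Log2 of intensity over the 75th percentile for the 10 spots of the *Fos* probe (left) and of the *Batf* probe (right) on each array, with grey lines joining the same spot on both arrays and black marks for the mean ± SD. All 10 *Fos* spots are lower and all 10 *Batf* spots higher on the *Pnpla1*-/- array, and the arrays do not overlap for either gene.

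Of the Jun subunits, only *Junb* was past 2-fold. The Jun genes have no introns, and their proteins can pair with themselves or with a Fos partner. *Jun*, the subunit with the strongest transactivation, had 23515 in *Pnpla1*+/+ and 20202 in *Pnpla1*-/- skin at its spot (chr4:94716928-94716987, minus strand). After scaling this was a difference of 0.063, within the scanner error, and below 0 in 4 of 12 other ways of processing. *Junb*, which can restrain Jun activity and whose loss in epidermis is known to cause inflammation, had 251 and 499 (chr8:87501881-87501940, minus strand). After scaling it was 2.42-fold higher, a difference of 1.27, or 1.21 more than that of *Jun*. With no scaling it was just under 2-fold, at 0.99, and with the arrays centred on spike-in RNA it was at 0.84. *Jund*, which is known for steady expression in many tissues, had 42146.5 and 26931 (chr8:73224436-73224495, plus strand) and was 1.29-fold lower, a difference of −0.36. The *Junb* probe is printed because the call of a changed Jun subunit rests on this 1 spot:
*Junb* probe: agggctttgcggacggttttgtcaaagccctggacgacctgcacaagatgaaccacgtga

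*Batf*, a small factor without a transactivation domain of its own, which pairs with Jun proteins and is best known from lymphocytes and myeloid cells, had 10 spots of 1 probe (chr12:87049872-87049929, plus strand). They ran from 448 to 479 with a median of 466 in *Pnpla1*+/+ skin, and from 961 to 1056 with a median of 999.6 in *Pnpla1*-/- skin. The arrays were far apart relative to the spots, and the mean was 2.64-fold higher, a difference of 1.40 ± 0.026 (SD over 10 spots). Some markers of leukocytes were also higher. Of 10 such markers 9 had a difference. Of these 3 were higher by 2-fold or more (*Cd74* at 2.46, *Ptprc* at 1.51 and *Adgre1* at 1.24) and none was lower by as much, where 6.70% and 3.04% of all genes were. The lymphocyte markers *Cd3e* and *Cd79a* were at 0.13 and 0.57, *Cd68* at 0.84, *Csf1r* at 0.67 and *Kit* at −0.033. *Itgam* was at −0.026 by its brightest probe, but its other probes gave 1.14 and 2.84. Their summed scaled signal went from 17.2 to 26.4, with *Csf1r* the brightest on both arrays, and *Cd207*, the marker of Langerhans cells, did not stand above background on either. Of 9 neutrophil markers 6 were at least 2-fold higher, where 6.70% of all genes were. These were *S100a8* (6.26), *Cxcr2* (at least 59.8-fold), *S100a9* (4.67), *Mpo* (4.35), *Ngp* (3.36) and *Ltf* (3.33), while *Elane* was at 0.050, *Camp* at 0.18 and *Ly6g* at 0.42. *Cxcr2* entered through the *Pnpla1*-/- array alone, and of the 8 markers above background on both arrays 5 were at least 2-fold higher. The sum over the 9 markers went from 8.18 to 228 and was mostly that of *S100a9* and *S100a8*, which inflamed keratinocytes also make. The part of these cells in the *Batf* difference was not tested.

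*Atf3*, a stress-induced factor that represses many of its targets, had 3206 in *Pnpla1*+/+ and 1791 in *Pnpla1*-/- skin (chr1:192994547-192994606, minus strand). It was 1.47-fold lower, a difference of −0.56, larger than the scanner error but short of 2-fold. *Egr1* had 12482 and 11894, a difference of 0.21 of about 1 SD of the scanner error, which was below 0 without scaling (−0.070) and when centred on spike-in RNA (−0.22).

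Calls at 2-fold were more frequent among dim probes. Genes with a difference were divided by mean signal into 4 groups of equal size, and from the dimmest to the brightest the share called higher went from 9.99% to 3.75% and the share called lower from 4.88% to 1.04%. *Fosl1*, *Junb* and *Batf* fell in the next to dimmest, in which 7.76% of genes were called higher. *Fosb* fell in the next to brightest, in which 2.40% were called lower, and *Fos* in the brightest. Cyclic loess, which takes out a trend of the differences with brightness, left *Fosl1* at 2.07, *Batf* at 1.5 and *Junb* at 1.34, and *Fosb* at −1.56, while *Fos* came to −0.98, just short of 2-fold.

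*Fos* and *Batf* are near neighbours on chromosome 12, with *Jdp2*, another AP-1 partner that represses, between them. From the *Fos* probe the *Jdp2* probe lies 163 kb and the *Batf* probe 232 kb away on mm9. Over this interval the differences were −1.01 for *Fos*, 0.052 for *Jdp2* (2785 and 2374 at chr12:86980657-86980716) and 1.40 for *Batf*, so that neighbouring genes of 1 family had opposite values. *Junb* and *Jund* share chromosome 8, but their probes lie 14277 kb apart.

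The promoters of the genes on either side of 2-fold are shown as RefSeq gives them for GRCm38.p6, the 250 bases before the annotated start. Capitals mark TGACG, the core of the cyclic AMP response element (CRE) that CREB, ATF and some AP-1 dimers bind, on either strand. Promoters of 8 members were searched, those of *Fosl1* and *Egr1* not. The first pair, *Fos* (chr12:85473640-85473889, plus strand) and *Fosb* (chr7:19310046-19310295, minus strand), was lower in *Pnpla1*-/- skin, and the other pair, *Junb* (chr8:84978749-84978998, minus strand) and *Batf* (chr12:85686470-85686719, plus strand), was higher:
*Fos* promoter: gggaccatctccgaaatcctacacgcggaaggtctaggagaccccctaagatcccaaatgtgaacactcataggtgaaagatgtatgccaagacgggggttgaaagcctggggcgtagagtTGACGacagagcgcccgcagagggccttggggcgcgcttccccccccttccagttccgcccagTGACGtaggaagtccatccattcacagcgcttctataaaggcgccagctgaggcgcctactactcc
*Fosb* promoter: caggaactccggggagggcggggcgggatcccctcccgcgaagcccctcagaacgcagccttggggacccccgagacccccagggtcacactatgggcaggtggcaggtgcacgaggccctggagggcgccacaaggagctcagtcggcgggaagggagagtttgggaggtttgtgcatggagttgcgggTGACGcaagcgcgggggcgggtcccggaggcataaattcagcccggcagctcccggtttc
*Junb* promoter: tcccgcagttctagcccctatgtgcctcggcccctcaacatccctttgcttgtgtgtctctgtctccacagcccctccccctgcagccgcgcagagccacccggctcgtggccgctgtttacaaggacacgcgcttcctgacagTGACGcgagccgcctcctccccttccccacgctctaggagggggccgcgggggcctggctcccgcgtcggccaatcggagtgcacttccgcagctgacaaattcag
*Batf* promoter: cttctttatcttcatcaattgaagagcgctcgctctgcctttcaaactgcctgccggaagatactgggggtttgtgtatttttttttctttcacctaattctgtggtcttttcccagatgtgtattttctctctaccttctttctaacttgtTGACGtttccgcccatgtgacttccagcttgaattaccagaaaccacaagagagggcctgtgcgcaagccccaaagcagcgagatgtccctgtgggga

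All 4 hold the CRE core, with 2 copies in *Fos*, 129 and 66 bases before the start, and 1 copy each in *Fosb* at 60, *Junb* at 106 and *Batf* at 98 bases. So do 5 of the 8 members searched, *Atf3* being the other, against 17.8% of all 32851 promoters of this length. The core thus stood in promoters of genes with opposite differences. The full CRE TGACGTCA, which contains the core, was in none of the 8 and in 1.55% of all promoters, and the AP-1 site TGANTCA was in none of the 8 and in 6.75% of all. The CArG box, the site of serum response factor, was also in none of these windows and in 1.47% of all, and in *Fos* that element is known to lie further upstream than the window reaches. The Egr site GCGNGGGCG stood in *Fosb* and *Fosl2* and in 4.70% of all promoters, and the TATA box TATAAA in *Fos* and in 12.4% of all. Each motif was searched on both strands, and these motifs were chosen after the promoters had been looked at.

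Other factors of the basic leucine zipper class can dimerize with AP-1 subunits or bind related sites. All 31 on the list had a difference. Of these 4 were higher by 2-fold or more and 1 was lower by as much, where 6.70% and 3.04% of all genes were. The median of 0.29 became −0.14 under spike-in centring. *Batf2*, an interferon-responsive relative of *Batf*, read 118 in *Pnpla1*+/+ against 507 in *Pnpla1*-/- skin and was the furthest from 0, at 2.39. *Cebpd*, an acute-phase regulator, was at 1.34, with 15145.5 and 31576. *Nfe2l3* and the small Maf gene *Maff* were at 1.03 and 1.01, and the other *Nfe2l3* probe gave 0.53. *Nfe2*, known from the red cell and platelet lineages, was the gene called lower, at −1.13. *Atf6b*, at −0.030, was the nearest to 0.

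Of 25 other immediate early genes, a difference could be given for 24. None was lower by 2-fold or more and 3 were higher by as much, where 3.04% and 6.70% of all genes were. The median of 0.24 was −0.038 when the arrays were left unscaled and −0.19 when they were centred on spike-in RNA. *Arc* was at 2.60 (127 and 637), *Ier3*, a regulator of cell survival, at 2.24 (1354 and 5276), and *Phlda1* at 1.0, on the 2-fold line. Other members gave values under 2-fold in either direction, such as *Egr3* at 0.57, *Zfp36*, which speeds the decay of cytokine mRNA, at 0.72, *Myc* at 0.37, and *Ccn1* and *Ccn2* at −0.56 and −0.57. *Egr2*, the nearest relative of *Egr1*, was at 0.0069. *Nr4a3* passed background in *Pnpla1*-/- skin alone and was at least 1.66-fold higher there, while *Egr4* did not pass it on either array.

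The signalling steps that lead to these genes were measured at the RNA level only, while the kinases act by phosphorylation, which an array does not show. None of 29 MAP kinases and of the ELK, SRF and related factors they act on was past 2-fold in either direction by its brightest probe. Of all genes, 6.70% were higher and 3.04% lower by as much. *Mapk8*, for the kinase JNK1, was at 0.0064 by its brightest probe, while its other probes gave −0.63 and −1.5, the latter past 2-fold. The median of the list was 0.16 but −0.12 when the arrays were left unscaled and −0.27 under spike-in centring. The values ran from −0.74 for *Srf*, the factor that binds the CArG box, to 0.88 for *Map3k14*. The *Srf* value came from its brighter probe, with 5025 and 2471, and the other probe gave −0.10. *Map2k4*, a kinase of the JNK branch, was the nearest to 0, at 0.00045. Among 19 phosphatases and inhibitors that switch this signalling off, 3 were at least 2-fold higher and 1 was lower by as much, against the same shares of all genes. The 3 were dual-specificity phosphatases close to the line, namely *Dusp7* (1.05), *Dusp6* (1.01) and *Dusp5* (1.0), and *Dusp8* was lower, at −1.06. The other probes of *Dusp7* and *Dusp8* gave 0.92 and −0.94, short of 2-fold. *Nab2*, which restrains Egr1, was the nearest to 0, at 0.046. EGF family ligands act through the receptor upstream of these kinases. Of 7 such ligands 5 were at least 2-fold higher, where 6.70% of all genes were, from *Tgfa* at 1.92 to *Epgn* at 3.04. *Btc* was at least 2-fold lower, where 3.04% of all genes were, at −2.41, and *Egf* was at −0.024.

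Of 25 genes known as AP-1 targets a difference could be given for 24. By 2-fold or more, 12 of them were higher and 1 was lower, where 6.70% and 3.04% of all genes were. The median was 1.08. Of the 24 values 5 are bounds, and 3 of the genes called higher, *Mmp1b*, *Mmp9* and *Mmp13*, entered through the *Pnpla1*-/- array alone. Over the 19 genes above background on both arrays 9 were higher and 1 was lower by 2-fold or more, with a median of 0.99. Among those above background on both arrays the largest was *Mmp3* (stromelysin), at 3.56 with 63.2 in *Pnpla1*+/+ and 615 in *Pnpla1*-/- skin, followed by *Il6* at 2.76 (61.6 and 342). *Ptgs2*, for the inducible cyclooxygenase, was at 2.36 over 10 spots. Of those above background in *Pnpla1*-/- skin alone, the collagenases *Mmp1b* and *Mmp13* were at least 3.89-fold and 2.27-fold higher and the gelatinase *Mmp9* at least 5.74-fold, so that their place in this order is not known. The gene called lower was *Ccnd1*, for cyclin D1, at −1.04 (15941 and 6355), and *Ivl*, for the envelope precursor involucrin, was at 0.018. The list is mixed, since many of its genes also answer to other factors, and which factor moved them was not tested.

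**Figure D4:**
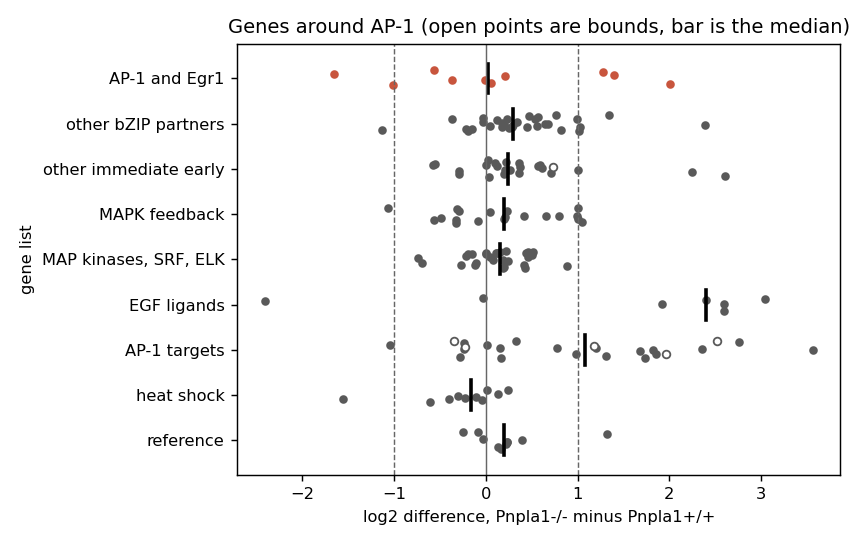
Log2 differences of the genes of each list, with filled points for genes well above background on both arrays, open points for bounds, black bars for medians and dashed lines at 2-fold. The 10 AP-1 and Egr1 genes (red) spread to both sides of 0, the MAP kinases, by their brightest probes, stay within 2-fold, and the EGF ligands and AP-1 targets lie mostly to the right, with medians of 2.40 and, 5 bounds included, 1.08.

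Markers of the hair follicle were lower along with *Fos* and *Fosb*. All 11 had differences below 0, and 6 were at least 2-fold lower (*Krt35*, *Krt28*, *Krt27*, *Shh*, *Hoxc13* and *Lef1*, from −1.33 to −1.01), where 3.04% of all genes were. The summed scaled signal of the 11 went from 107 to 59.3, with *Krt71* the brightest on both arrays. *Krt85* was at −0.18 by its brightest probe and at −1.34 by another, and another *Lef1* probe gave −0.98. None of these markers was at background. Of the keratinocyte markers, *Krt15*, a keratin of basal cells and of the follicle, was at −1.67, *Krt14* at 1.35 and *Ovol1* at 1.59, with *Krt1* at 0.10. The part of the follicle, or of any shift between layers, in the *Fos* and *Fosb* values was not tested.

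*Fosl1*, *Batf*, *Junb*, *Fos* and *Fosb*, and also *Atf3* and *Jund*, kept their direction in all 12 alternative ways of processing the intensities, while *Jun* kept it in 8, *Egr1* in 10 and *Fosl2* in 11. Some of these could not move the members: the filters on dim probes and on outlier spots touched none of them, averaging of probes touched *Fosl2* alone, and the deposited ratios carry the same intensities. *Fosl1* ran from 1.58 to 2.07 and *Fosb* from −2.09 to −1.52, and both stayed past 2-fold throughout. *Fos* ran from −1.44 to −0.98, *Batf* from 0.97 to 1.5 and *Junb* from 0.84 to 1.34.

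**Figure D5:**
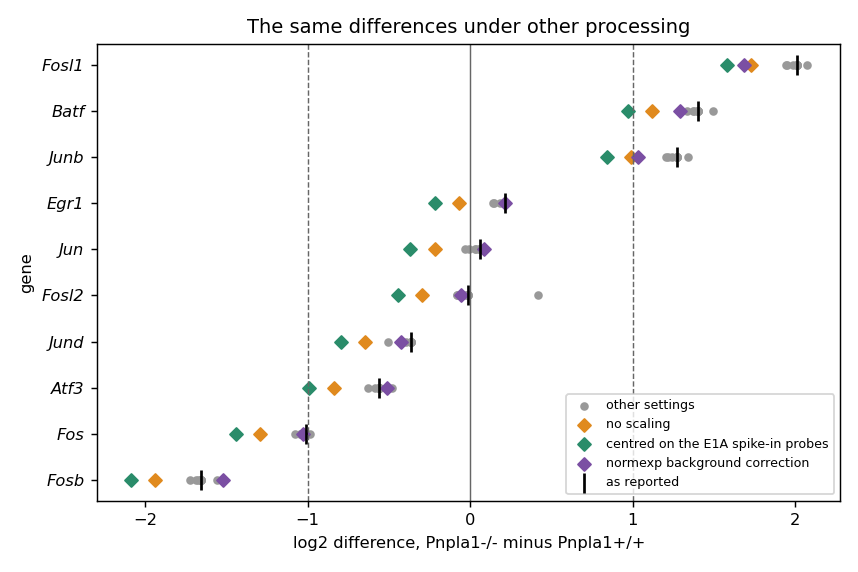
Log2 difference of each gene as reported (black bars), with no scaling (orange), centred on the spike-in RNA (green), with normexp background correction (purple) and in the other settings (grey), with dashed lines at 2-fold. No scaling moves the median of all genes by −0.28 and spike-in centring by −0.44, which takes *Jun* and *Egr1* across 0 and *Junb* inside 2-fold, and spike-in centring takes *Batf* to 0.97.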

How the data were processed

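Skin RNA of P0 mice was measured on 1 array per genotype, so that no test was possible. The authors scanned the arrays and processed them, with Feature Extraction 11.5.1.1 per the submitters' processing notes. For each spot they deposited an intensity on a linear scale, corrected for background and spatial trends and not scaled between arrays. They also deposited a ratio of that intensity to 1 factor per array. Both arrays lie on 1 slide and were scanned together.

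Of 43020 spots per array other than controls, 71.7% and 73.3% were well above background in *Pnpla1*+/+ and *Pnpla1*-/- skin and none was saturated. The number of arrays limits the precision. Outlier-flagged spots (193) were left out, spots of a probe were averaged as log2, and a gene took its brightest probe. A gene above background on 1 array only has a bound, its dim side set to its own signal or, if larger, to the lowest one that passed background. This gave 22383 genes a difference, 1703 of them bounds, and 7743 were below background on both. Of 39429 probes, 7973 kept the file's gene name and the rest were named through a RefSeq table (GRCm38.p6). Work was done in Python 3.11.15 (numpy 2.4.6, pandas 2.3.3) and R 4.3.3 (limma 3.58.1) and tested on simulated data. The members, lists and settings were chosen with earlier results of these data known. All members are named, and of each list the genes past 2-fold (the 5 furthest where over 6 were) and the one nearest 0, besides some named after their values were seen. Motif shares are over RefSeq promoters.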

Additional observations from a re-analysis of the deposited data

How the results depend on the processing

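No gene has a replicate, so these values limit the processing only. After scaling, the mean of 8 E1A spike-in probes was 0.43 above 0 in *Pnpla1*-/- skin, and which scaling matches the RNA content of the skin was not tested. The settings that rescale the arrays move all genes by 1 amount by construction. For the other settings the cause was not tested. A term for the slide was not run, since both arrays share 1 slide. No paired analysis was possible because each genotype has 1 array.

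Over all genes with a difference, 1499 (6.70%) were higher and 681 (3.04%) lower by 2-fold or more. Of these changed genes 68.8% were higher, against 41.2% with no scaling, 27.5% under spike-in centring and 58.8% with quantile normalization. The pairs of percentages that follow are the shares of genes higher and lower. The median of all genes shifted by −0.28 with no scaling, −0.44 under spike-in centring and 0.10 with no filter on dim probes. Spike-in centring gave 3.73% and 9.82%, 1 member higher (*Fosl1*), *Pnpla1* at −2.50, and medians of −0.41 for the members, −0.14 for other bZIP factors, −0.19 for other immediate early genes, −0.24 for phosphatases and inhibitors, −0.27 for MAP kinases and their factors, 1.97 for EGF ligands, 0.65 for AP-1 targets, −0.59 for heat shock genes and −0.23 for reference genes. No scaling gave 4.47% and 6.37%, *Pnpla1* at −2.35, and, in the same order, −0.26, 0.011, −0.038, −0.087, −0.12, 2.12, 0.80, −0.45 and −0.084. Quantile normalization moved the medians of the members to −0.058, other bZIP factors to 0.20, MAP kinases to 0.025, AP-1 targets to 0.92, heat shock genes to −0.25 and reference genes to 0.013. Normexp background correction gave 4.34% and 1.45%, *Pnpla1* at −1.51, EGF ligands at 2.29 and AP-1 targets at 0.96. Cyclic loess left 1 member lower (*Fosb*), with EGF ligands at 2.50 and reference genes at 0.081. Averaging a gene's probes moved the members' median to 0.14, through *Fosl2*, which came to 0.42. AP-1 targets were at 1.20 with no filter on dim probes, which gave 10.1% and 3.67%, and at 0.99 when restricted to probes that passed background on both. A threshold of 1.5-fold gave 13.8% and 9.35%, and one of 3-fold 3.06% and 1.02%, with 1 member each way, *Fosl1* and *Fosb*. No member past 2-fold changed sign under any alternative, but the filters on dim probes and outlier spots left the members' values as they were by construction, as did averaging of probes for all but *Fosl2*, and the deposited ratios are the same intensities divided by 1 factor per array.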

Other observations

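Heat shock and stress genes, another group that answers to acute stress, were not higher in *Pnpla1*-/- skin. Of 11 on the list 10 had a probe, none was at least 2-fold higher and 1 was at least 2-fold lower, *Hmox1*, for haem oxygenase 1, which read 11430 in *Pnpla1*+/+ against 3200.2 in *Pnpla1*-/- skin, or −1.55 on the log2 scale, and gave −1.26 at its other probe. *Dnajb1*, a heat shock co-chaperone, was at 0.013 and *Hspa1a* at 0.24, and the median of the list was −0.16. Of 10 reference genes *B2m*, the light chain of MHC class I, was at least 2-fold higher, at 1.32, and the others ran from −0.25 to 0.40, with *Ywhaz* at −0.026.

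Among the remaining marker lists, none of 5 endothelial, 6 skeletal muscle, 8 fibroblast, 5 melanocyte markers and of the 4 adipocyte markers with a difference was past 2-fold, with medians of 0.31, 0.13, −0.16, −0.38 and 0.077. The nearest to 0 in each were *Pecam1* (0.17), *Acta1* (0.050), *Col3a1* (0.013), *Tyrp1* (0.12) and *Adipoq* (0.057). Red blood cell markers differed more, with a median of 1.11. Of 5, *Alas2*, *Hbb-bs* and *Slc4a1* were past 2-fold, at 1.32, 1.27 and 1.11, and the summed scaled signal went from 42.9 to 78.9, with *Hba-a1* the brightest on both arrays.

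Among the genes placed upstream of AP-1, *Btc* (583 and 90.5) and *Areg* (544 and 2365) code for ligands of the same receptor family and had differences of opposite sign, −2.41 and 2.40. Their nearly equal size depends on the scaling, since rescaling the arrays moves both values in the same direction.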
